A study of Mus musculus with 8 samples.

Results

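The 10 genes described here, Gfap, Vim, Serpina3n, Timp1, Lcn2, Cd44, Osmr, Cp, Steap4 and Aspg, are genes that astrocytes raise after several kinds of injury. They were taken by symbol from the deposited gene count table, and all 10 were found among its 47643 genes. The table holds 8 libraries of RNA labelled as spinal cord, 1 from each of 8 C57BL/6 mice, from a study of what the small GTPase Arf1 does in neurons. By their genotype label 4 libraries are homozygous and 4 are heterozygous, with a separate animal number in each title. For every sample the labels describe an intraperitoneal dose of 100 mg/kg tamoxifen as the means of removing Arf1, in mice of 2 to 10 months. The alleles behind the genotype labels, the driver of any recombinase, and the age and sex of single animals are not given. Whether the heterozygous mice received tamoxifen too is not stated animal by animal, so they are the comparison group by genotype label alone. The p-values measure the spread between these mice, whose litters and dates the labels do not give.

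Astrocytes are glial cells that take up glutamate, buffer potassium and cover the vessels of brain and spinal cord. After injury or inflammation they become reactive: they make more of the intermediate filament proteins GFAP and vimentin, and they secrete acute-phase proteins, protease inhibitors and lipocalin-2. Cytokines of the family that signals through the shared receptor gp130, such as LIF, CNTF and oncostatin M, activate the transcription factor STAT3 in these cells, and STAT3 is a known activator of Gfap. The genes described here belong to a programme shared by mouse astrocytes that react to ischaemia and to bacterial lipopolysaccharide.

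The libraries held 26321522 to 37879426 expected counts per homozygous library and 29857210 to 37803594 per heterozygous library. Arf1, the gene to be removed, was at 307, 22.5, 22.8 and 39.9 CPM (counts scaled to a common library size with TMM factors) in homozygous replicates 1 to 4, against 296 to 334 CPM in heterozygous libraries. The library labelled homozygous replicate 1 was thus at the heterozygous Arf1 level and goes against its label, so the 10 genes were tested with all 8 libraries and again with 7, without it. Values of other genes are from the fit of 7 unless 8 is named, and none of the genes in the other lists passed with all 8. Homozygous replicate 3 had 2.44% ribosomal bases and 92.36% of reads mapped, against at most 0.34% and at least 98.33% in the other 7 libraries. The RNA integrity number was 8 for homozygous replicate 4 and 9 for every other library. The tissue label was checked against 3 forebrain genes (Emx1, Neurod6, Tbr1) and 7 Hox genes of the cord. All 3 forebrain genes were present in all 8 libraries, with sums of 176 to 241 CPM in homozygous and 164 to 223 CPM in heterozygous libraries, beside Hox sums of 27.2 to 64.0 and 41.6 to 72.1 CPM. Neurod6 and Tbr1, genes of cortical neurons, lay between 66.3 and 144 CPM in every library, and Ttr, the defining gene of the choroid plexus, between 853 and 1619 CPM in homozygous and between 175 and 1772 CPM in heterozygous libraries. These levels go against RNA from spinal cord alone, and their part in the results was not tested.

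Of the 10 reactive astrocyte genes, Serpina3n and Timp1 rose in the libraries with low Arf1. This holds for the 7 libraries, in which edgeR's quasi-likelihood test called 2 of the 10 genes higher and 0 lower at an adjusted p under 0.05. Over all genes tested in these 7 libraries 0.55% were called higher and 0.67% lower, 1.22% in all. With all 8 libraries edgeR called 0 of the 10, as it did for 0% of the 16511 genes tested. In that fit an unadjusted p under 0.05 was reached by 3 of the 10 genes that were higher and by 1 that was lower, and 16.8% of all genes reached it in either direction. DESeq2 on the 8 libraries called 3 higher, Serpina3n, Timp1 and Lcn2, against 1.57% of all genes called higher, 2.54% lower and 4.1% in all. The limma-voom fit called 0, and no share over all genes is given for it. All 10 genes passed the filter on low counts in both fits. Their median log2 fold change, homozygous over heterozygous, was 0.49 in the 7 libraries and 0.32 in the 8, against medians over all genes of 0.0027 and 0.0015. In tissue RNA, more reactive cells, more RNA per cell and a different share of other cells in the tissue cannot be told apart.

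**Figure D1:**
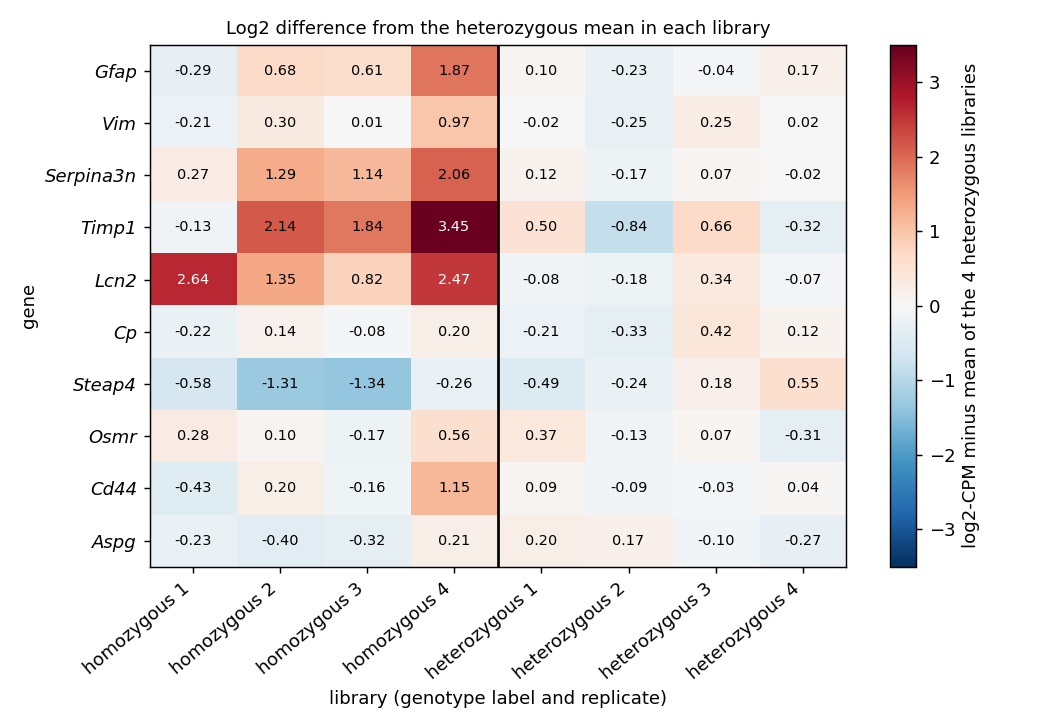
Log2-CPM of each gene in each library minus the mean of the 4 heterozygous libraries (rows, genes; columns, libraries with their genotype label and replicate; red, above that mean; blue, below it). Timp1 reaches 3.45 and Serpina3n 2.06 in homozygous replicate 4, while homozygous replicate 1 is below 0 for every gene but Serpina3n, Lcn2 and Osmr.

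The groups did not overlap for 2 of the 10 genes in the 8 libraries, Serpina3n and Lcn2, which were higher in each homozygous library than in any heterozygous one. Of all genes tested 4.61% were higher in this way, and 9.28% did not overlap in either direction. In the 7 libraries Gfap and Timp1 joined them, making 4 of the 10, against 9.76% of all genes and 18.5% in either direction. No gene of the 10 was lower in every homozygous library in either set, against 4.67% and 8.77% of all genes.

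Promoter windows of the 4 genes whose libraries separate, and of Steap4, the one gene of the 10 that was lower at an unadjusted p under 0.05, are shown because a motif of a transcription factor of the reactive state could be looked up in them. They hold 250 bases before to 20 after the transcription start, 5′ to 3′ on the gene's strand, from RefSeq on GRCm38.p6. Capitals mark the STAT motif TTCNNNGAA, the AP-1 motif TGANTCA and the NF-kB consensus, searched on both strands in windows that ran to 50 bases after the start. The windows are chr11:102897181-102897450 on the minus strand for Gfap, chr12:104406458-104406727 on the plus strand for Serpina3n, chrX:20869916-20870185 on the plus strand for Timp1, chr2:32387720-32387989 on the minus strand for Lcn2 and chr5:7960222-7960491 on the plus strand for Steap4.
Gfap: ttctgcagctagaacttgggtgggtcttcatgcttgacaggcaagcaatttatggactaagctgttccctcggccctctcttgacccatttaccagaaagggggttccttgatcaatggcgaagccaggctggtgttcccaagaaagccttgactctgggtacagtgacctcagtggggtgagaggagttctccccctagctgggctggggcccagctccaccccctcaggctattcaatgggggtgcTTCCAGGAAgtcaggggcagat
Serpina3n: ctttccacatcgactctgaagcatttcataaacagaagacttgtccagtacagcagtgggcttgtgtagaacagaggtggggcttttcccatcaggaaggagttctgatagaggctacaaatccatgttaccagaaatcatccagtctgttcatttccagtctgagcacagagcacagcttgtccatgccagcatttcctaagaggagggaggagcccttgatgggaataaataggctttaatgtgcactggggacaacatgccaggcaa
Timp1: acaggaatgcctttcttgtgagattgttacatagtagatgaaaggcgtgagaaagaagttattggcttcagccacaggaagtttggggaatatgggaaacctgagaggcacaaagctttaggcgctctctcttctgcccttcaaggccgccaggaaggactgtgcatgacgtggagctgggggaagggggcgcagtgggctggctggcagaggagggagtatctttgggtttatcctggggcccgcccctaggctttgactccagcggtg
Lcn2: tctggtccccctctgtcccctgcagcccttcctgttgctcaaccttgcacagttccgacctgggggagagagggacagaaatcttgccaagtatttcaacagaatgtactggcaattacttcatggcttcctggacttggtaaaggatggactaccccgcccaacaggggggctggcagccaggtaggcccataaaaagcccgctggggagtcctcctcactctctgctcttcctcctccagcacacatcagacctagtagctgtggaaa
Steap4: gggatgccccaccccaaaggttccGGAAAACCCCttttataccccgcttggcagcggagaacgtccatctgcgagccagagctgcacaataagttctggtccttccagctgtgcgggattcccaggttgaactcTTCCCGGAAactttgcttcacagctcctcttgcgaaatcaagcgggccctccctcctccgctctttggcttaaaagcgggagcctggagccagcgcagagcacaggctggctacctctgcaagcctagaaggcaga
The Gfap window holds 1 STAT match, TTCCAGGAA, whose first base lies 2 bases upstream of the RefSeq start. The windows of Gfap and Lcn2 lie inside the gene spans given below, which are from another annotation, GENCODE M21. The Steap4 window holds the STAT match TTCCCGGAA, 116 bases upstream, and 1 match of the NF-kB consensus. No motif of the 3 was found in the windows of Serpina3n, Timp1 or Lcn2. All 10 genes had a window in the table, and the STAT motif was in 2 of the 10, against 9.55% of 27025 genes. The AP-1 motif was in the windows of Cp and Osmr, against 8.97% of genes, and the NF-kB consensus in those of Vim and Steap4, against 6.55%. No motif match overlapped another. A match describes letters in a window and is not evidence of binding.

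Of the intermediate filament genes Gfap was above every heterozygous library in each of the 3 libraries with low Arf1, while Vim was not, and homozygous replicate 4 was the highest library for both. Neither passed in the 8 or the 7 libraries. Gfap, whose protein is the filament that defines astrocytes, spans chr11:102887336-102900912 on the minus strand (GRCm38). It was at 303, 594, 567 and 1352 CPM in homozygous replicates 1 to 4, against 398, 316, 359.9 and 417 CPM in heterozygous replicates 1 to 4. Homozygous replicate 4 was the highest library, replicates 2 and 3 lay above every heterozygous library, and the library labelled homozygous replicate 1 lay below all of them. Without that library the mean was 838 ± 446 CPM in homozygous and 373 ± 44.6 CPM in heterozygous mice (SD, n = 3 and 4), a log2 fold change of 1.17 (SE 0.31) that did not pass (edgeR adjusted p = 0.117). With all 8 libraries it was 0.92 (SE 0.43, edgeR adjusted p = 0.329). Leaving out homozygous replicate 4 as well lowered the log2 fold change to 0.63 (SE 0.11), and Gfap then passed (edgeR adjusted p = 0.0254). In that fit of 6 libraries edgeR called 3 of the 10 genes higher (Gfap, Serpina3n and Timp1), against 0.822% of all genes, and the median of the 10 was 0.085. DESeq2 on the 7 libraries called 4 of the 10 higher, Gfap (log2 fold change 1.16, adjusted p = 0.0420), Serpina3n, Timp1 and Lcn2. It called 2.63% of all genes higher and 4.09% lower, 6.72% in all.

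Vim encodes vimentin, a filament protein of astrocytes, vessels and fibroblasts, and lies at chr2:13573927-13582826 on the plus strand. It was at 42.6, 60.9, 49.9 and 96.5 CPM in homozygous replicates 1 to 4, against 48.6, 41.6, 58.7 and 50.2 CPM in heterozygous replicates 1 to 4. Homozygous replicate 4 stood above all others, replicate 2 was just above the highest heterozygous library, and replicates 1 and 3 lay within the heterozygous range. Its log2 fold change was 0.47 (SE 0.22, edgeR adjusted p = 0.291) in the 7 libraries and 0.33 (SE 0.24, edgeR adjusted p = 0.523) in the 8. The ratio of Gfap to Vim in TPM (a scale per gene length) was 3.67, 5.30, 6.66 and 7.85 in homozygous replicates 1 to 4, against 4.46, 3.995, 3.21 and 4.58 in heterozygous replicates 1 to 4. Every homozygous library with low Arf1 had a higher ratio than any heterozygous library, and the library labelled homozygous replicate 1 lay within their range. A 2-sided exact permutation test gave p = 0.0571 for the 7 libraries, the smallest that 35 splits allow, and p = 0.143 for the 8. None of 6 genes of other intermediate filaments and their linkers passed in the 7 libraries, and 1 of the 6 had a positive log2 fold change (median -0.36). Among them Nes, which encodes nestin, a filament of immature and reactive glia, was at 16.7, 15.7, 10.6 and 23.0 CPM in homozygous and at 21.4, 27.3, 30.1 and 19.6 CPM in heterozygous replicates 1 to 4. Prph and Synm had the other small p-values of this list, with log2 fold changes of -0.71 and -0.15 (edgeR adjusted p = 0.332 and 0.382).

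**Figure D2:**
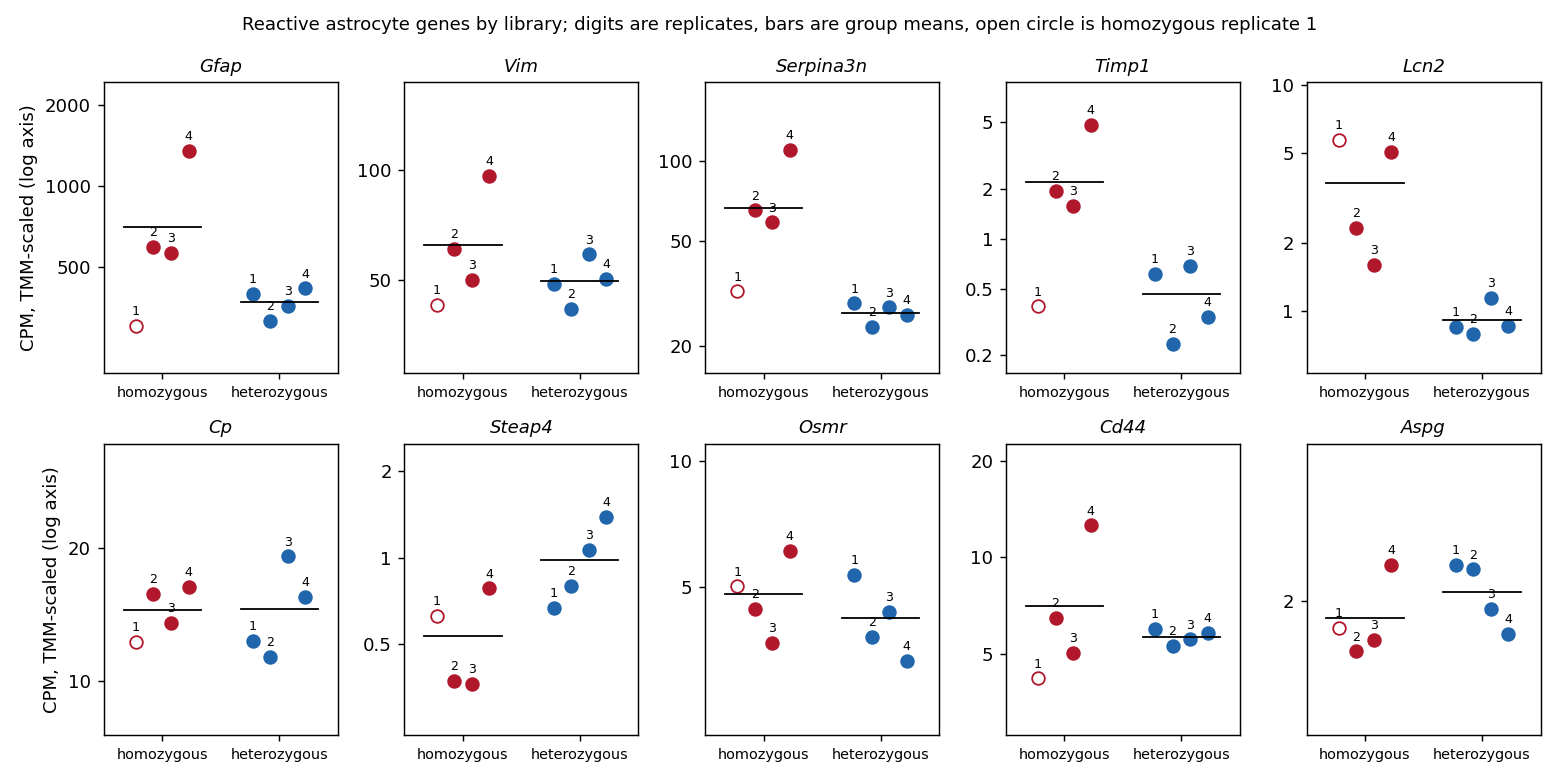
TMM-scaled CPM of each gene (log axis, separate for each panel) in homozygous libraries (red, left) and heterozygous libraries (blue, right). Digits are replicate numbers, bars are group means over 4 libraries, and the open circle is the library labelled homozygous replicate 1, which lies within or below the heterozygous range for every gene but Serpina3n and Lcn2.

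Among the secreted proteins, Serpina3n and Timp1 rose without the library labelled homozygous replicate 1. Lcn2 lay above every heterozygous library in all 4 homozygous ones, that library included, but passed in neither edgeR fit. Serpina3n encodes a secreted inhibitor of serine proteases and lies at chr12:104406729-104414329 on the plus strand, in a cluster of related genes. It was at 32.1, 65.1, 58.7 and 111 CPM in homozygous replicates 1 to 4, against 28.9, 23.5, 27.9 and 26.2 CPM in heterozygous replicates 1 to 4. All 4 homozygous libraries were above all heterozygous ones, but replicate 1 exceeded the highest of them by a small margin. In the 7 libraries the mean was 78.2 ± 28.4 CPM in homozygous and 26.6 ± 2.36 CPM in heterozygous mice (SD, n = 3 and 4), 2.94-fold higher, with a log2 fold change of 1.56 (SE 0.21, edgeR adjusted p = 0.0278). With all 8 libraries it was 1.32 (SE 0.34) and did not pass (edgeR adjusted p = 0.149). Leaving out 1 more library kept the call without homozygous replicate 4 (log2 fold change 1.21, edgeR adjusted p = 0.00131) or heterozygous replicate 1 (0.0444). The call was lost without any 1 of the other 5 libraries, namely homozygous replicates 2 (0.0678) and 3 (0.0527) and heterozygous replicates 2 (0.0733), 3 (0.0685) and 4 (0.0805), all edgeR adjusted p. Its paralogs were near 0: of 10 other Serpina3 genes 2, Serpina3c and Serpina3g, had enough counts to be tested, neither passed, and the 10 summed to 1.04 to 1.89 CPM in homozygous and 0.668 to 1.81 CPM in heterozygous libraries. Of all stretches of 100 bases in Serpina3n transcripts 0.204% also occur in another gene, Serpina3e-ps or Serpina3g, and none do in the other 9 genes described here.

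Timp1 encodes a secreted inhibitor of matrix metalloproteinases. It was at 0.392, 1.94, 1.57 and 4.83 CPM in homozygous replicates 1 to 4, against 0.615, 0.233, 0.685 and 0.340 CPM in heterozygous replicates 1 to 4. The 3 homozygous libraries with low Arf1 were above every heterozygous library, and the library labelled homozygous replicate 1 lay within the heterozygous range. These levels rest on 15, 52, 39 and 148 counts in homozygous and on 23, 7, 25 and 13 counts in heterozygous replicates 1 to 4. From counting error alone the 95% exact binomial interval ran from 1.12 to 2.15 CPM in homozygous replicate 3, the lowest of the 3, and from 0.443 to 1.01 CPM in heterozygous replicate 3, the highest of the 4. In the 7 libraries the mean was 2.78 ± 1.78 CPM in homozygous and 0.468 ± 0.216 CPM in heterozygous mice (SD, n = 3 and 4), 5.93-fold higher, with a log2 fold change of 2.55 (SE 0.47, edgeR adjusted p = 0.0460). It was 2.19 with all 8 libraries (SE 0.68) and did not pass (edgeR adjusted p = 0.184). Of the 7 fits with 1 more library left out Timp1 passed in 1, without homozygous replicate 4 (log2 fold change 1.88, edgeR adjusted p = 0.0473). It did not pass without homozygous replicates 2 (0.0945) and 3 (0.0757) or heterozygous replicates 1 (0.0559), 2 (0.0927), 3 (0.0703) and 4 (0.110), all edgeR adjusted p. With limma-voom its adjusted p was 0.0613 and with Xist as a covariate 0.0999.

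Timp1 (chrX:20870166-20874735, plus strand) lies within the Syn1 gene, which is read from the other strand and encodes the synaptic vesicle protein synapsin I. Syn1 was at 475, 482, 571 and 439.6 CPM in homozygous replicates 1 to 4, against 514, 534, 485 and 445 CPM in heterozygous replicates 1 to 4, and so was far above Timp1 in every library and lowest where Timp1 was highest. From 99.44% to 99.58% of reads lay on the expected strand, but the strand setting of the counting is not given in the sources used here. None of 8 tested genes of other tissue inhibitors and their metalloproteinases passed in the 7 libraries. Timp4, another inhibitor of this family, was at 32.7, 43.2, 34.9 and 37.2 CPM in homozygous and 26.5, 26.2, 33.2 and 28.2 CPM in heterozygous replicates 1 to 4 (log2 fold change 0.43, edgeR adjusted p = 0.0749). Timp3, an inhibitor bound to the matrix, was at 96.9, 103, 94.4 and 99.1 CPM against 112, 123, 147 and 149 CPM (log2 fold change -0.42, edgeR adjusted p = 0.0791), and Adam17, the sheddase that releases TNF, had a log2 fold change of -0.48 (edgeR adjusted p = 0.0889).

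Lcn2 encodes lipocalin-2, a secreted protein that binds iron-carrying bacterial siderophores, and lies at chr2:32384633-32388252 on the minus strand. It was at 5.72, 2.34, 1.61 and 5.09 CPM in homozygous replicates 1 to 4, against 0.855, 0.798, 1.15 and 0.864 CPM in heterozygous replicates 1 to 4. Lcn2 was the one gene of the 10 whose highest library was the one labelled homozygous replicate 1, and the groups did not overlap. Counting error leaves the nearest pair unresolved: the 95% exact binomial interval was 1.15 to 2.19 CPM in homozygous replicate 3, from 40 counts, and 0.8288 to 1.55 CPM in heterozygous replicate 3, from 42 counts. The log2 fold change was 2.02 (SE 0.39, edgeR adjusted p = 0.0974) in the 8 libraries and 1.72 (SE 0.36, edgeR adjusted p = 0.0558) in the 7, and it passed in neither. DESeq2 called it in both, with adjusted p-values of 1.15e-04 and 0.00103. Leaving out homozygous replicate 4 from the 7 lowered the log2 fold change to 1.10 (edgeR adjusted p = 0.0680). Neutrophils also make Lcn2. The 9 neutrophil and monocyte genes looked at (S100a8, S100a9, Ngp, Camp, Ltf, Ly6g, Mmp8, Ccr2, Ly6c2) summed to 5.30 to 42.3 CPM in homozygous and 7.11 to 14.5 CPM in heterozygous libraries. Their sum was highest in homozygous replicate 4, where Lcn2 was at 5.09 CPM, and lowest in the library labelled homozygous replicate 1, where Lcn2 was at 5.72 CPM. In homozygous replicate 4 S100a8 and S100a9 were at 11.9 and 17.3 CPM, against at most 3.40 and 5.95 CPM in heterozygous libraries, and Ly6g was at 0.0652 CPM or less in every library. The part of neutrophils and monocytes in the Lcn2 level was not tested. None of the 5 of these genes with enough counts passed in either fit.

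**Figure D3:**
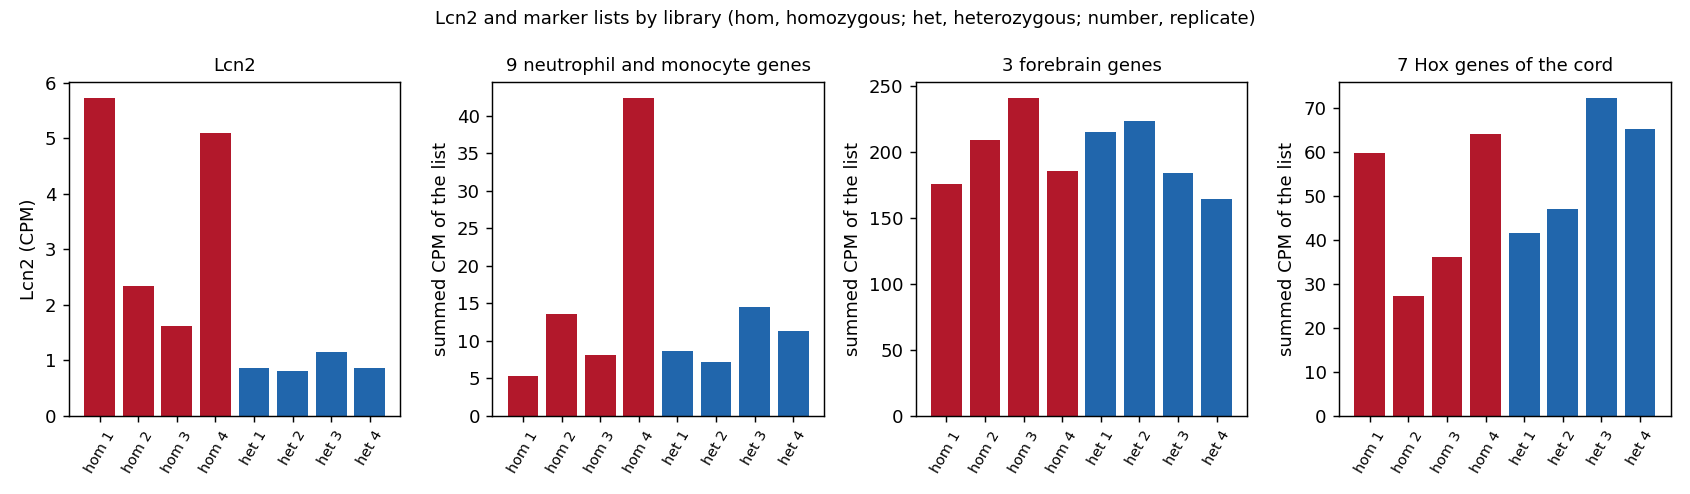
From left to right, the level of Lcn2, the summed level of 9 neutrophil and monocyte genes, of 3 forebrain genes and of 7 Hox genes of the cord in each library (CPM; red, homozygous; blue, heterozygous; each bar is 1 library). In the library labelled homozygous replicate 1 Lcn2 stands at 5.72 CPM, where the neutrophil and monocyte sum is 5.30 CPM, and the forebrain sum is at least 164 CPM in every library.

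The receptors among the 10, Cd44 and Osmr, did not pass in either fit. Cd44 encodes the receptor for hyaluronan and osteopontin and lies at chr2:102811141-102901665 on the minus strand. It was at 4.18, 6.48, 5.04 and 12.6 CPM in homozygous replicates 1 to 4, against 5.98, 5.29, 5.53 and 5.79 CPM in heterozygous replicates 1 to 4. Homozygous replicate 4 stood at more than any other library, replicate 2 just above the heterozygous range and replicates 1 and 3 below it. The log2 fold change was 0.51 (SE 0.27, edgeR adjusted p = 0.332) in the 7 libraries and 0.32 (SE 0.30, edgeR adjusted p = 0.616) in the 8. It was 0.02 without homozygous replicate 4 in the 7 libraries, and -0.12 without it in the 8. Of 10 genes of hyaluronan synthesis and breakdown and of other Cd44 ligands and partners 0 passed in the 7 libraries. Spp1, which encodes osteopontin, was at 29.6, 32.6, 40.7 and 72.0 CPM in homozygous and 26.6, 36.8, 40.7 and 26.9 CPM in heterozygous replicates 1 to 4 (log2 fold change 0.57, edgeR adjusted p = 0.336). Rdx and Ezr, which link membrane proteins to actin, and Hyal2, a hyaluronidase, had the smallest p-values of the list, with log2 fold changes of -0.24, 0.27 and -0.27 (edgeR adjusted p = 0.200, 0.336 and 0.283).

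Osmr encodes the receptor subunit that binds oncostatin M together with gp130, and lies at chr15:6813577-6874969 on the minus strand. It was at 5.01, 4.43, 3.67 and 6.10 CPM in homozygous replicates 1 to 4, against 5.34, 3.79, 4.36 and 3.32 CPM in heterozygous replicates 1 to 4. The groups overlapped, with homozygous replicate 4 alone above every heterozygous library. Its log2 fold change was 0.17 (SE 0.21, edgeR adjusted p = 0.682) in the 7 libraries and 0.19 (SE 0.19, edgeR adjusted p = 0.622) in the 8, and its sign turned in the 7 without homozygous replicate 4 (-0.06). The ligand Osm was at 0.261 CPM or less and Il6 at 0.0806 CPM or less in every library, and neither had enough counts to be tested. None of the 4 tested ligands of the gp130 family passed in the 7 libraries: Lif had a log2 fold change of -1.08, Clcf1 of 0.53 and Ctf1 of 0.44 (edgeR adjusted p = 0.190, 0.326 and 0.350). None of the 5 tested receptors of the family passed either. Il6st, which encodes gp130 itself, was at 90.4, 82.5, 68.7 and 80.3 CPM in homozygous and 101, 92.8, 103 and 119 CPM in heterozygous replicates 1 to 4, each homozygous library below every heterozygous one (log2 fold change -0.43 in the 7 libraries, edgeR adjusted p = 0.0648).

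Downstream of these receptors 0 of 8 genes of the JAK and STAT3 pathway passed in the 7 libraries, with a median log2 fold change of -0.05. Stat3 was at 52.9, 49.5, 44.2 and 51.4 CPM in homozygous and 51.4, 47.4, 51.9 and 50.1 CPM in heterozygous replicates 1 to 4 (log2 fold change -0.05, SE 0.07). Socs3, the feedback inhibitor that STAT3 induces, was at 2.48, 2.34, 2.82 and 4.18 CPM against 3.34, 2.46, 2.74 and 1.96 CPM, and the groups overlapped for both genes. Jak1, the kinase that gp130 binds, had the smallest p of the list (log2 fold change -0.24, edgeR adjusted p = 0.138). These are RNA levels, and phosphorylated STAT3 was not measured.

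The genes of metal handling and the asparaginase gene did not pass in either fit. Cp encodes ceruloplasmin, a copper-carrying ferroxidase that astrocytes hold on their surface, and lies at chr3:19957054-20009145 on the plus strand. It was at 12.2, 15.7, 13.5 and 16.3 CPM in homozygous replicates 1 to 4, against 12.3, 11.3, 19.1 and 15.5 CPM in heterozygous replicates 1 to 4, and every homozygous library lay within the heterozygous range. The log2 fold change was 0.06 (SE 0.17, edgeR adjusted p = 0.879) in the 7 libraries and -0.01 (SE 0.16, edgeR adjusted p = 0.975) in the 8. Steap4 encodes a membrane reductase of iron and copper and lies at chr5:7960457-7982213 on the plus strand. It was at 0.627, 0.372, 0.363 and 0.783 CPM in homozygous replicates 1 to 4, against 0.668, 0.798, 1.07 and 1.39 CPM in heterozygous replicates 1 to 4, from 9 to 53 counts per library. Homozygous replicates 1, 2 and 3 lay below every heterozygous library, and replicate 4 lay within their range. The log2 fold change was -0.93 (SE 0.38, edgeR adjusted p = 0.214) in the 7 libraries and -0.85 (SE 0.33, edgeR adjusted p = 0.241) in the 8, and -1.42 without homozygous replicate 4 in the 7 (edgeR adjusted p = 0.105).

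Of 9 tested genes of iron and copper handling 1 was called in the 7 libraries, Fth1, which encodes the heavy chain of the iron store ferritin. It rose to 2549, 2564 and 3258 CPM in homozygous replicates 2, 3 and 4, against 1889, 1889, 1999 and 1708 CPM in heterozygous replicates 1 to 4 (log2 fold change 0.58, SE 0.10, edgeR adjusted p = 0.0372). The library labelled homozygous replicate 1 held 1985 CPM, within the heterozygous range. Fth1 has near-identical copies in the genome, so its count is less certain. Slc40a1, the iron exporter ferroportin, had a log2 fold change of -0.62 (edgeR adjusted p = 0.0623), and Steap3, a paralog of Steap4, of -0.68 (edgeR adjusted p = 0.0955).

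Aspg encodes an asparaginase and lies at chr12:112106679-112127559 on the plus strand. It was at 1.75, 1.56, 1.65 and 2.38 CPM in homozygous replicates 1 to 4, against 2.38, 2.33, 1.92 and 1.70 CPM in heterozygous replicates 1 to 4. Homozygous replicates 2 and 3 lay below the heterozygous range, replicate 1 within it and replicate 4 at its upper end, by a small margin above heterozygous replicate 1. Its log2 fold change was -0.15 (SE 0.22, edgeR adjusted p = 0.732) in the 7 libraries and -0.18 (SE 0.19, edgeR adjusted p = 0.669) in the 8. The 3 other genes with asparaginase or related activity, Asrgl1, Aga and Tasp1, did not pass in either fit.

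**Figure D4:**
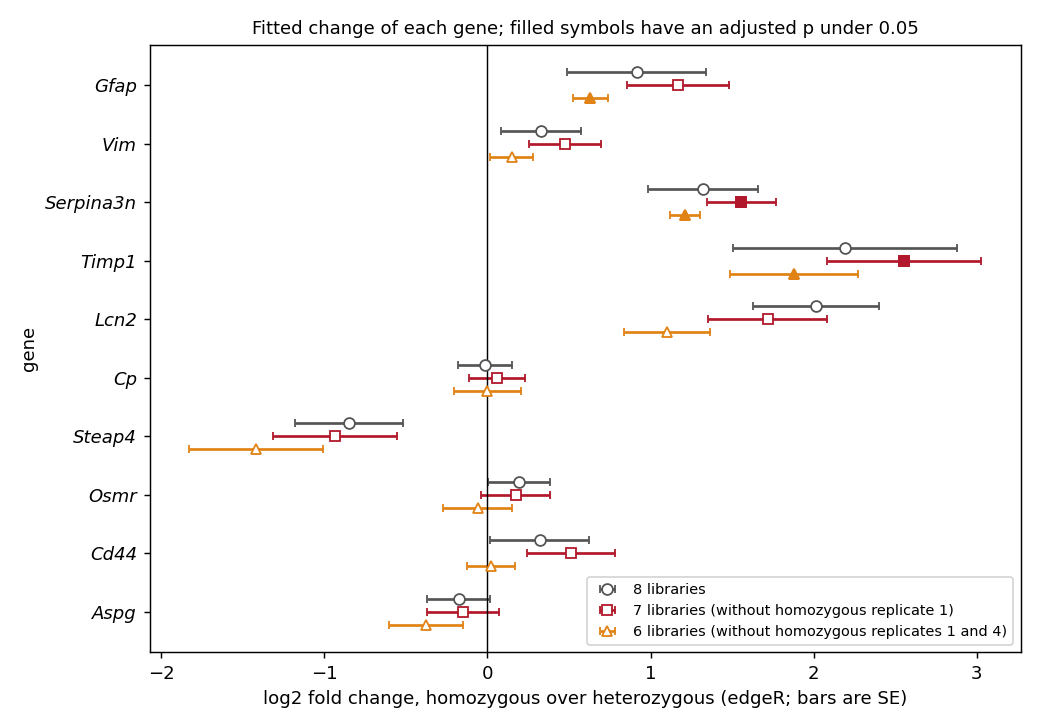
Log2 fold change of each gene, homozygous over heterozygous (x axis; bars, SE; edgeR), with all 8 libraries, with 7 and with 6. Filled symbols passed an adjusted p of 0.05: Serpina3n and Timp1 with 7 libraries, and these and Gfap with 6, where the changes of Serpina3n, Timp1 and Lcn2 are smaller than with 7.

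The 4 homozygous libraries differed in how many of the genes they held at a high level. Homozygous replicate 4 lay above every heterozygous library for 8 of the 10 genes, against 24.9% of all genes tested, and was the highest of the 8 libraries for 7 of the 10, against 12.4% of all genes. The median over the 10 genes of the log2 difference from the heterozygous mean was 1.06 in homozygous replicate 4, 0.25 in replicate 2, -0.03 in replicate 3 and -0.22 in the library labelled homozygous replicate 1, while the median over all genes in replicate 4 was 0.0032. Homozygous replicate 2 was above every heterozygous library for 6 of the 10 genes and below for 2, against 27.4% and 25% of all genes. Replicate 3 was above for 4 and below for 3, against 28.7% and 28%, and the library labelled homozygous replicate 1 was above for 2 and below for 3, against 17% and 18.8%. The lower RNA integrity number and the highest neutrophil and monocyte sum also belong to replicate 4. It further had the highest sum of 8 oligodendrocyte genes, 15229 CPM against at most 11325 CPM in heterozygous libraries, and of 10 microglial genes, 531 CPM against at most 452 CPM. Xist, the RNA of the inactive X chromosome, was at 1.78, 4.76, 33.7 and 412 CPM in homozygous replicates 1 to 4, against 44.5, 0.0665, 0 and 386 CPM in heterozygous replicates 1 to 4. With Xist as a covariate in the 7 libraries edgeR called 0 of the 10 genes, and no share over all genes is given for that fit. In it the log2 fold change was 0.94 for Gfap, 1.45 for Serpina3n and 2.40 for Timp1 (edgeR adjusted p = 0.196, 0.0672 and 0.0999). Beyond that fit the part of these in the differences was not tested.

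On the scale per gene length the heterozygous order of levels began with Gfap at 262 ± 40.6 TPM, Vim at 65.0 ± 9.06 TPM, Serpina3n at 24.4 ± 2.24 TPM and Cp at 6.63 ± 1.42 TPM (SD, n = 4), each range apart from the next. Below them came Cd44 at 2.31, Lcn2 at 2.21, Aspg at 1.40, Osmr at 1.39, Timp1 at 1.21 and Steap4 at 0.573 TPM, where each range but that of Lcn2 overlapped the next lower one. In the 3 homozygous libraries with low Arf1 the order began with the same 3 genes, Gfap at 514 ± 304 TPM, Vim at 75.2 ± 31.7 TPM and Serpina3n at 62.5 ± 26.5 TPM (SD, n = 3). Timp1 at 6.36 ± 4.46 TPM, Lcn2 at 6.31 ± 4.23 TPM and Cp at 6.11 ± 1.25 TPM followed (SD, n = 3). That order rests on homozygous replicate 4, where Timp1 was at 11.5, Lcn2 at 11.1 and Cp at 7.45 TPM. In replicates 2 and 3 Timp1 was at 4.29 and 3.30 TPM and Lcn2 at 4.75 and 3.08 TPM, below Cp at 5.92 and 4.97 TPM. Gfap made up 65.3% to 78.2% of the summed TPM of the 10 genes in homozygous libraries and 67.2% to 73.9% in heterozygous ones.

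Genes of resting astrocyte function were not called. Of 16 genes of astrocyte identity and homeostasis 0 passed in either fit, with a median log2 fold change of -0.16 in the 7 libraries and sums of 6612 to 8166 CPM in homozygous and 7483 to 9017 CPM in heterozygous libraries. The 3 with the smallest p were Kcnj10, the potassium channel Kir4.1 (log2 fold change -0.68, edgeR adjusted p = 0.0523), Slc1a2, the glutamate transporter GLT-1 (-0.33, edgeR adjusted p = 0.169), and Gjb6, the gap junction protein connexin 30 (0.25, edgeR adjusted p = 0.258). Levels were also set against the mean log2-CPM of these 16 genes in the same library. The 3 homozygous libraries minus the heterozygous ones then gave 1.18 for Gfap, 1.63 for Serpina3n, 2.60 for Timp1 and 1.68 for Lcn2. Their heterozygous SDs were 0.24, 0.20, 0.69 and 0.14. The differences were 0.56 for Vim, 0.53 for Cd44, 0.29 for Osmr, 0.22 for Cp, -0.04 for Aspg and -0.84 for Steap4. Gfap was at 1.40, 1.56 and 2.65 in the 3 homozygous libraries, against 0.45 to 0.97 in heterozygous ones. The 16 genes were themselves lower by median (-0.16), and without this reference the Gfap difference was 1.05. With all 4 homozygous libraries the differences from the reference were 0.83 for Gfap, 1.31 for Serpina3n, 1.94 for Timp1 and 1.94 for Lcn2. Those of the other genes described here ran from -0.76 for Steap4 to 0.38 for Vim.

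No further gene of the shared programme or of the A1 and A2 sets of reactive genes passed in either fit. Of 3 further genes of the shared programme 0 passed in the 7 libraries. Hspb1, which encodes a small heat shock protein, was at 6.92, 17.7, 12.9 and 32.3 CPM in homozygous and 16.3, 10.4, 10.5 and 8.77 CPM in heterozygous replicates 1 to 4 (log2 fold change 0.87, edgeR adjusted p = 0.218). Cxcl10, a chemokine, and S1pr3, a sphingolipid receptor, had log2 fold changes of 1.12 and -0.13 (edgeR adjusted p = 0.178 and 0.558). Of 11 tested genes of the neuroinflammatory A1 set 0 passed, with a median of 0.04, and of 10 tested genes of the ischaemic A2 set 0 passed, with a median of 0.08. Fbln5, an elastic fibre protein, and Fkbp5, a chaperone of steroid receptors, had log2 fold changes of 0.76 and 1.03 in the A1 set (edgeR adjusted p = 0.101 and 0.121), and Gbp2, an interferon-induced GTPase, of -0.62. In the A2 set Cd14, the lipopolysaccharide co-receptor, had 0.71 (edgeR adjusted p = 0.0943) and Cd109, an inhibitor of TGF-beta signalling, 0.80 (edgeR adjusted p = 0.232).

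Of 21 tested genes of glial scar and of astrocytes in disease 1 passed in the 7 libraries, Igfbp5, a binding protein of insulin-like growth factors. It fell to 159, 164 and 158 CPM in homozygous replicates 2, 3 and 4, against 203, 199.6, 249 and 246 CPM in heterozygous replicates 1 to 4 (log2 fold change -0.49, SE 0.09, edgeR adjusted p = 0.0460). Ncan, which encodes the scar proteoglycan neurocan, was at 156, 133, 148 and 143 CPM in homozygous and 221, 202, 175 and 174 CPM in heterozygous replicates 1 to 4, and did not pass (edgeR adjusted p = 0.0546). Lgals3, which encodes galectin-3, had a log2 fold change of 1.69 (edgeR adjusted p = 0.0606). Among 10 tested genes of the microglial signals to astrocytes and of NF-kB, C1qa rose in the 7 libraries (log2 fold change 0.83, SE 0.11, edgeR adjusted p = 0.0178). Il1a, another of these signals, was at 0.862, 0.261, 0.403 and 0.555 CPM in homozygous and 0.427, 0.532, 0.466 and 0.183 CPM in heterozygous replicates 1 to 4, and Tnf was at 0.0979 CPM or less in every library. Of 10 genes of TGF-beta signalling 0 passed, and Tgfbr1, a receptor of the pathway, had the smallest p (log2 fold change -0.19, edgeR adjusted p = 0.223). With all 8 libraries 0 genes passed in any of the 31 lists beside the 10 genes, and with 7 libraries 25 of the 31 had none.

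The genes whose library profiles lay nearest to those of 3 of the 10 were looked up. The measure was the root-mean-square difference, over the 8 libraries, of the log2-CPM from the heterozygous mean. It was taken over 13260 tested genes of at least 1 CPM on average. Predicted and clone-named genes, mitochondrially encoded genes, Y-linked genes, Xist and the 10 genes themselves were left out of these. Nearest to Gfap were C3 (0.24), S100a6 (0.29), A2m (0.31), Cebpd (0.31) and Tagap (0.32). C3, the third complement component, was at 9.19, 19.5, 11.8 and 45.8 CPM in homozygous and 13.8, 10.1, 11.6 and 13.4 CPM in heterozygous replicates 1 to 4. Like Gfap it was highest in homozygous replicate 4 and lowest in the library labelled homozygous replicate 1. Nearest to Serpina3n were Apoc1 (0.28), Cd52 (0.33), C4b (0.34), Phyhd1 (0.34) and Ifi27l2a (0.34), and nearest to Timp1 were Clec7a (0.48), Chil3 (0.62), Cd52 (0.68), Lgals3 (0.71) and Ifi27l2a (0.80). Among the 10 genes themselves Gfap lay 0.37 from Serpina3n, 0.42 from Vim and 0.42 from Cd44, and farther, at 0.96, from Timp1. These differences describe the libraries and carry no test.

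In the authors' deposited table of 185 genes 4 of the 10 are listed, Serpina3n, Timp1, Lcn2 and Gfap. The authors' deposited table gives log2 fold changes of 1.53 for Serpina3n (false discovery rate 3.93e-07), 2.65 for Timp1 (3.30e-04), 1.63 for Lcn2 (0.0132) and 1.14 for Gfap (0.0193). The called-gene tables that accompany it hold 6 libraries, without homozygous replicate 1 and heterozygous replicate 1. On the same 6 libraries edgeR as run here called 1 of the 10 genes, Serpina3n (log2 fold change 1.60, adjusted p = 0.0444), against 0.438% of all genes called higher, 0.974% lower and 1.41% in all. The labels do not give the settings behind the authors' deposited table.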

How the data were processed

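Total RNA of 8 mice was sequenced, 1 library each. The submitters' processing notes name cutadapt, STAR, RSEM and Picard and the build mm10 (GRCm38). Versions, annotation and strand setting are not given. The authors deposited RSEM expected counts and TPM per gene, per the file headers, and log2 fold changes with p-values and false discovery rates of their own comparison. The deposited quality report gives other values per library.

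Expected counts were rounded to whole numbers and tested with edgeR 4.0.16 in R 4.3.3 (TMM scaling, filterByExpr by group, robust quasi-likelihood fit, Benjamini-Hochberg adjustment over all genes tested, threshold 0.05). DESeq2 1.42.0 and limma 3.58.1 were alternatives. Log2-CPM used a prior count of 0.5. The limma fit on log2 TPM used a pseudocount of 1, which understates changes of low genes, and mean log2 levels on the deposited TPM used none. Other steps used scipy 1.17.1, pandas 2.3.3 and Python 3.11.15. The procedure was tested on simulated counts of the 8 and the 7 libraries. Of genes above 1 CPM raised 2-fold, it recovered 80% with 8 libraries and 88% with 7. No simulated library departed from its group as homozygous replicate 1 did, so these shares do not carry over to the real libraries. Intervals cover counting error alone. The 10 genes, the other gene lists and the set of 7 libraries were chosen with earlier results of these data known. All 10 genes are named. From other lists the genes past the threshold are named, or else up to 3 with the smallest p. Stat3, Socs3, Osm, Il6, Il1a, Tnf, Spp1, Ncan, Lgals3, Slc40a1, Steap3, S100a8, S100a9, Ly6g and Xist were named after their values were seen. Positions are from GENCODE M21, where 47224 of 47643 gene identifiers matched, and promoters from RefSeq. Some marker genes are not reported here. Replicate numbers follow the order of deposition.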

Additional observations from a re-analysis of the deposited data

How the results depend on the processing

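With all 8 libraries the count of 0 became 1 at an adjusted p of 0.1, 3 with DESeq2, 1 on the libraries of the authors' table and 2 by DESeq2 without homozygous replicate 4 (an alternative added after seeing the data), and ran from 0 to 2 with 1 library left out. With 7 libraries the count of 2 became 3 at an adjusted p of 0.1, 4 with DESeq2 and 3 by DESeq2 without homozygous replicate 4. It became 1 with at least 1 CPM in 4 libraries, where 8 of the 10 genes were tested. It was 1 with limma-voom, 0 with Xist as a covariate and 1 on the libraries of the authors' table. It ran from 0 to 3 with 1 more library left out. Without a filter on low counts it stayed at 2, but Lcn2 (edgeR adjusted p = 0.0288) took the place of Serpina3n (0.0560). The cause of these differences was not tested. Of all genes in the 7 libraries DESeq2 called 6.72% and edgeR without a filter 1.65%. On the libraries of the authors' table edgeR called 1.41%, and without homozygous replicate 4 it called 2.38%. For most other alternatives, limma-voom, the Xist covariate and the filter of 1 CPM among them, no such share is given. Their counts cannot be set against all genes. No gene that had passed changed direction. On the deposited TPM, without a pseudocount, the mean log2 level of 3 homozygous libraries minus heterozygous turned to -0.11 for Cp and -0.08 for Osmr. On CPM these values were 0.09 and 0.16. Signs turned in Cd44, Osmr and Cp, none of which had passed. Cd44, at 0.32 in the 8 libraries, turned on log2 TPM (-0.022) and by DESeq2 without homozygous replicate 4 (-0.12). Its range was -0.12 to 0.51 when 1 library was left out. Osmr turned in the 7 libraries on log2 TPM (-0.041) and by that DESeq2 fit (-0.062), with a range of -0.059 to 0.33. Cp had ranges of -0.12 to 0.15 in the 8 and -0.043 to 0.22 in the 7 libraries. In the 7 Cp also turned without scaling (-0.0040) and on log2 TPM (-0.10). The libraries of the authors' table (-0.015) and that DESeq2 fit (-0.0027) turned it too. On log2(TPM + 1) the median of all genes moved to -0.14 in the 8 and -0.17 in the 7 libraries. The median of the 10 genes stayed positive throughout, from 0.05 to 0.49 in the 8 and from 0.09 to 0.71 in the 7 libraries with 1 library left out, and was lowest on log2(TPM + 1), at 0.03 in the 8 libraries. No paired analysis was possible because the labels pair no animals and replicates were numbered by accession. Depth limits Timp1, Lcn2, Steap4 and Aspg, which have few counts, and with 3 or 4 mice per group a p that misses the threshold does not show that a gene was the same in both genotypes.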

Other observations

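Other cell types of the tissue were read in the same libraries. Of 10 microglial genes 3 passed in the 7 libraries: C1qa and C1qb, subunits of the first complement component, were higher, and Tmem119, a marker of resident microglia, was lower (log2 fold changes 0.83, 0.60 and -0.56; edgeR adjusted p = 0.0178, 0.0466 and 0.0462). C1qa was at 52.4, 70.5, 70.3 and 94.3 CPM in homozygous replicates 1 to 4, against 46.3, 39.4, 48.3 and 42.3 CPM in heterozygous replicates 1 to 4, so that each homozygous library lay above every heterozygous one. Of 8 neuronal genes Nefl and Nefm, which encode neurofilaments, were lower (log2 fold changes -0.53 and -0.89; edgeR adjusted p = 0.0223 for both), and of 7 fibroblast genes Col3a1, a collagen gene, was lower (log2 fold change -2.33, edgeR adjusted p = 0.0498). None of 8 oligodendrocyte, 5 oligodendrocyte precursor, 7 endothelial, 7 mural, 7 ependymal, 6 Schwann cell, 5 erythrocyte and 4 choroid plexus genes passed in the 7 libraries, nor did the 1 T cell gene with enough counts.

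No vessel, Schwann cell or erythrocyte gene passed, and their levels are given as sums. The 7 endothelial genes had a median log2 fold change of -0.43 in the 7 libraries, with 0 of 7 positive, and sums of 118 to 205 CPM in homozygous and 175 to 240 CPM in heterozygous libraries. The 6 Schwann cell genes summed to 58.7 to 109 CPM in homozygous and 164 to 621 CPM in heterozygous libraries, and each homozygous library lay below every heterozygous one. The 5 erythrocyte genes summed to 257 to 715 CPM in homozygous and 186 to 467 CPM in heterozygous libraries. The part of these cell types in the levels of the astrocyte genes was not tested.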
